A study of Mus musculus with 24 samples.

Results

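The genes followed across the whole series are 10 transcripts that mark endothelial cells: Cdh5, Pecam1, Kdr, Flt1, Tie1, Tek, Emcn, Esam, Vwf and Cldn5. They were chosen by name, with earlier results of these data known. All 10 were found among the 24029 genes named on the array, through 14 probes printed in 24 spots. Endothelial cells line blood and lymph vessels, and they hold together through junction proteins, read growth signals through the VEGF receptors and the Tie receptors, and store the clotting protein von Willebrand factor. In a tumour these genes are commonly read as a sign of vessels, although some of them, Flt1 and Pecam1 among them, are also known in monocytes and macrophages.

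RNA from mouse macrophage preparations was labelled with Cy3 and measured on Agilent arrays of 60-base probes, 1 sample per array, in 6 groups of 4 arrays. All animals were C57BL/6 males of 10 weeks. Tumour-associated macrophages (TAM) came from post-sepsis mice, 14 days after sepsis had been induced, or from naive mice, by a Percoll gradient and 1 hour of adhesion; the labels do not name the tumour. Marrow macrophages (M0) were grown for 7 days in L929-conditioned medium (20%) with serum (10%) from mononuclear progenitors of post-sepsis or naive mice. Cultures of naive marrow were in addition given IFN-gamma (50 ng/mL) with LPS (10 ng/mL) on day 3, named M1, or IL-10 (20 ng/mL) on day 3, named M2. The arrays of each group were picked for RNA purity, in the case of TAM 4 samples out of 12 from 3 experiments and in the cultures from 2 experiments of 3 samples per group; which sample came from which experiment is not stated, so that p-values measure only the spread between these samples. Naive TAM replicate 2 was marked by the submitters as low in RNA and quality and is left out of every test and mean, which leaves 3 naive TAM arrays and 23 arrays in all. Each value is a level in log2, the processed intensity less that array's 75th percentile, so that 0 is the brightness of the 75th percentile; levels of different probes are not compared.

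The 23 arrays had 56.9% to 69.7% of probes well above background, against 42.4% for the array left out. Macrophage identity genes were detected in TAM, with 11 of 12 well above background on each of the 7 TAM arrays and Cd163 on none, at a list mean between -0.22 and 1.15, against 5.17 to 5.36 in naive M0. Genes of pigment cells were bright on all TAM arrays, with a mean between 6.94 and 7.67 over 6 melanocyte genes, against -3.11 to -2.07 on the 16 culture arrays. The arrays lay on 3 slides, each with TAM of both kinds. Centring arrays on their median in place of the 75th percentile moved the median change of all features by 0.34 for post-sepsis TAM against M0 and by 0.53 between the TAM groups.

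The probe sequences of Tie1 and Tek, sister receptors with related kinase regions, are shown because Tie1 was well above background on all 7 TAM arrays and on no culture array, whereas Tek was above it on 4 TAM and 3 culture arrays. Those of Emcn and Pecam1 are shown as a pair of which the first was called between tumour and marrow and the second was not. All are 60 bases, printed 5′ to 3′, with the mm9 positions that the files give, and capitals mark the longest run that the Tie1 and Tek probes share.
Tie1 (probe A_51_P177171, NM_011587, chr4:118144132-118144191, minus strand): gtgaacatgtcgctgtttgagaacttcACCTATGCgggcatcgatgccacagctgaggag
Tek (probe A_55_P2262136, NM_013690, chr4:94540624-94540683, plus strand): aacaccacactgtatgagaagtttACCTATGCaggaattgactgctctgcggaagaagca
Emcn (probe A_55_P1988048, NM_001163522, chr3:137086389-137086448, plus strand): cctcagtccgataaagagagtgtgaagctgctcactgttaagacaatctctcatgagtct
Pecam1 (probe A_55_P2087087, NM_001032378, chr11:106540864-106540923, minus strand): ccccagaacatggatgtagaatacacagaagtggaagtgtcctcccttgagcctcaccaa
Aligned at that run of 8 bases without gaps, the Tie1 and Tek probes overlap by 57 bases, of which 39 are identical (68.4%). The accessions are those the files give; exon boundaries were not used here.

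The first question was whether macrophages taken from a tumour and macrophages grown from marrow differ in these transcripts. In naive mice 6 of the 9 members that could be tested were higher in TAM than in M0: the junction genes Cdh5, Esam and Cldn5, the sialomucin gene Emcn, the orphan receptor gene Tie1 and the VEGF receptor gene Flt1. None of the 9 was lower. Over all features 14.4% were called higher and 20.8% lower (limma, Benjamini-Hochberg adjusted p under 0.05). Cdh5, Esam, Emcn and Tie1 were above background on at most 1 M0 array of either kind, so that they came into the test through TAM alone, and a gene that does so had to be bright in TAM; the count is a description for these 4. Of the 5 members measurable in TAM and M0, Cldn5 and Flt1 were called higher and Kdr, Pecam1 and Vwf were not called. In post-sepsis mice each of the same 6 was again higher in TAM, where 16.3% of features were called higher and 27% lower. With arrays centred on their median, calls over all features split differently there, 54.4% of them higher in place of 37.6%, while the 6 members kept their calls. In both comparisons 6 of 10 members had groups that did not overlap with TAM above M0, apart from any call, and such a pattern was seen for 16.4% of features in naive and 13.6% in post-sepsis mice. An array of a whole preparation cannot tell more cells of a type from more of its RNA per cell.

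**Figure D1:**
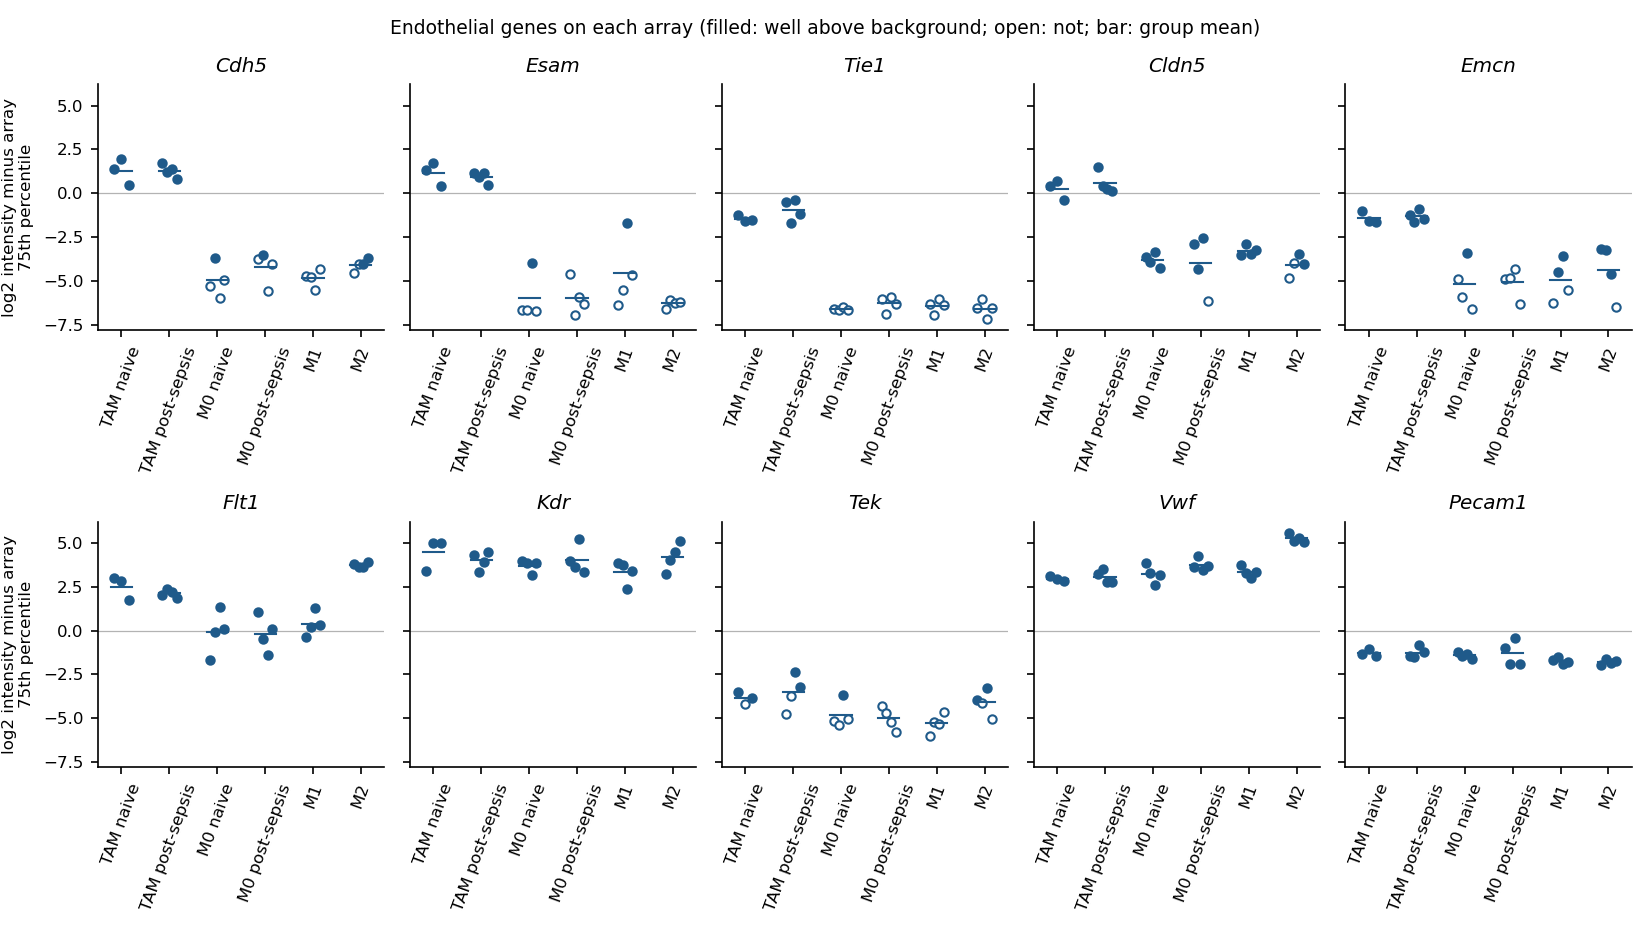
Level of each of the 10 genes on each used array, as log2 intensity minus the array's 75th percentile (vertical axis), in the 6 groups (horizontal axis), 1 panel per gene by its brightest probe; filled points are well above background, open points are not, and bars are group means. Cdh5, Esam, Tie1, Cldn5 and Emcn separate the 7 TAM arrays from all 16 culture arrays, whereas Flt1 and Vwf are highest in M2.

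Cdh5 encodes VE-cadherin, the adhesion molecule of endothelial junctions. Its level was 1.41, 1.97 and 0.48 in naive TAM replicates 1, 3 and 4, and 1.70, 1.21, 1.38 and 0.83 in post-sepsis TAM replicates 1 to 4. In naive M0 it read -5.28, -3.70, -5.96 and -4.95, of which only replicate 2 was well above background, and in post-sepsis M0 -3.76, -3.54, -5.60 and -4.01, again with only replicate 2 above background. Every TAM array therefore lay above every M0 array, and the 3 used naive TAM arrays spanned a wider range than the 4 post-sepsis ones. The difference was 6.26 ± 0.50 (SE; adjusted p = 2.14e-09) in naive and 5.51 ± 0.46 (adjusted p = 3.49e-09) in post-sepsis mice. Within the slides, naive TAM exceeded naive M0 by 5.68, 5.93 and 6.69.

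Esam encodes an immunoglobulin-type adhesion molecule of endothelial junctions and platelets. It read 1.34, 1.75 and 0.39 in naive TAM, and 1.16, 0.95, 1.17 and 0.47 in post-sepsis TAM. Naive M0 read -6.64, -6.67, -3.95 and -6.69, with replicate 3 alone above background, and post-sepsis M0 lay between -6.92 and -4.63 with no array above background. Replicate 4 was the lowest array in both TAM groups, for Esam and for Cdh5. Esam was at least 30.8-fold higher in post-sepsis TAM than in post-sepsis M0, taking for M0 the dimmest signal that counts as above background. The adjusted p in limma there, 1.96e-07, belongs to the fitted difference from background readings and not to this bound. The naive difference was 7.15 ± 0.81 (adjusted p = 3.98e-07). Outside TAM a single array stood high, M1 replicate 3 at -1.69, while the other M1 arrays read -6.37, -5.51 and -4.64, all not well above background.

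Cldn5, the main claudin of tight junctions in brain endothelium, was measurable in the cultures as well. Its level was 0.40, 0.69 and -0.36 in naive TAM and 1.47, 0.43, 0.23 and 0.15 in post-sepsis TAM. Naive M0 read -3.65, -3.94, -3.36 and -4.25, all above background. The groups did not overlap, and the difference was 4.05 ± 0.59 (adjusted p = 1.05e-05) in naive mice. In post-sepsis mice it was 4.55 ± 0.54 (adjusted p = 7.66e-07), with M0 spread from -6.14 to -2.56. Post-sepsis TAM replicate 1 was the highest of all arrays.

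Emcn encodes endomucin, a sialomucin of capillary and venous endothelium. It read -1.03, -1.56 and -1.66 in naive TAM and -1.24, -1.63, -0.90 and -1.46 in post-sepsis TAM, a tight band on both sides. Naive M0 read -4.92, -5.90, -3.40 and -6.59, with replicate 3 alone above background, and no post-sepsis M0 array was. The naive difference was 3.79 ± 0.77 (adjusted p = 0.000491), and in post-sepsis mice Emcn was at least 6.50-fold higher in TAM. The adjusted p in limma in post-sepsis mice, 0.000239, belongs to the fitted difference from background readings and not to this bound. M0 naive replicate 3 was thus the only array of its group above background for Esam, Emcn and Tek.

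Tie1 is a receptor without a ligand of its own that works beside Tek, the receptor of the angiopoietins. Tie1 read -1.25, -1.57 and -1.54 in naive TAM and -0.52, -1.67, -0.38 and -1.20 in post-sepsis TAM, and it was not well above background on any of the 16 culture arrays, which read -7.16 to -5.90. It was at least 7.41-fold higher in naive TAM than in naive M0 and at least 8.38-fold higher in post-sepsis TAM than in post-sepsis M0. The adjusted p-values in limma, 3.73e-11 and 4.80e-12, belong to the fitted differences from background readings and not to these bounds. Tie1 thus split the series by source on every array used. Tek was above background on 2 of 3 naive TAM, 2 of 4 post-sepsis TAM, 1 of 4 naive M0, 0 of 4 post-sepsis M0, 0 of 4 M1 and 2 of 4 M2 arrays. Its highest level was -2.36, in post-sepsis TAM replicate 3. Tek was too dim for a test in any comparison, since none of the groups had 3 arrays above background.

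Flt1 was bright enough to be measured in the cultures as well as in TAM. This gene, whose product VEGFR1 binds VEGF-A, VEGF-B and PlGF, was above background on every array by its brightest probe. It read 2.97, 2.82 and 1.73 in naive TAM and 2.05, 2.40, 2.19 and 1.86 in post-sepsis TAM, against -1.70, -0.09, 1.34 and 0.08 in naive and 1.05, -0.46, -1.41 and 0.06 in post-sepsis M0. TAM stood above M0 without overlap, by 2.60 ± 0.56 (adjusted p = 0.000855) in naive and 2.31 ± 0.52 (adjusted p = 0.00126) in post-sepsis mice, although M0 cultures spread over about as wide a range as the difference. A second Flt1 probe, A_55_P2166282, gave 2.12 ± 0.41 (adjusted p = 0.000253) and 2.86 ± 0.38 (adjusted p = 2.77e-06). The third, dim probe A_52_P405145 was tested in post-sepsis mice alone and was not called there (0.03; adjusted p = 0.968).

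Kdr (VEGFR2, the main signalling receptor for VEGF-A), Pecam1 (CD31, an adhesion molecule of endothelium, platelets and leukocytes) and Vwf are among the best known vessel markers. Kdr by its brightest probe read 3.39, 4.99 and 5.02 in naive TAM and 3.94, 3.85, 3.16 and 3.83 in naive M0, groups that overlapped, with a difference of 0.77 ± 0.50 (95% confidence interval -0.27 to 1.82; adjusted p = 0.244). Pecam1 read -1.32, -1.04 and -1.45 in naive TAM and -1.24, -1.45, -1.35 and -1.60 in naive M0, a difference of 0.14 ± 0.28 (interval -0.45 to 0.73; adjusted p = 0.729). The Pecam1 interval ends far below the difference seen for Cdh5. However, Pecam1 was well above background on 4 naive M0 arrays and Cdh5 on only 1. The Cdh5 difference thus starts largely from background readings, and the sizes are not alike in kind. Vwf by its brightest probe read 3.11, 2.92 and 2.80 in naive TAM and 3.86, 3.29, 2.62 and 3.15 in naive M0 (-0.29 ± 0.27; interval -0.85 to 0.28; adjusted p = 0.431). In post-sepsis mice Vwf was the 1 member called lower in TAM, at -0.67 ± 0.25 (adjusted p = 0.0351). That call was lost without post-sepsis TAM replicate 3 (-0.57), post-sepsis TAM replicate 4 (-0.58) or post-sepsis M0 replicate 2 (-0.51), and with median centring (-0.33), normexp (-0.60) or the mean over both probes (-0.17), and the second Vwf probe read 0.34 ± 0.18 (adjusted p = 0.137). Kdr and Pecam1 differed by -0.02 ± 0.46 (interval -0.98 to 0.95) and 0.05 ± 0.26 (interval -0.50 to 0.59) in that comparison.

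The size of these differences depended on the background correction. With normexp, which adds an offset of 50 intensity units, the naive differences were 3.87 for Esam, 3.53 for Cdh5, 2.56 for Cldn5, 2.33 for Flt1, 1.83 for Tie1 and 1.55 for Emcn. In post-sepsis mice they were 3.41, 3.13, 2.66, 2.07, 1.91 and 1.34 in the same order, and all 12 kept their calls. The normexp changes of Tie1 in both comparisons, and of Esam and Emcn in post-sepsis mice, are smaller than their bounds, so that every "at least" value in the text holds for the processed signal alone.

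**Figure D2:**
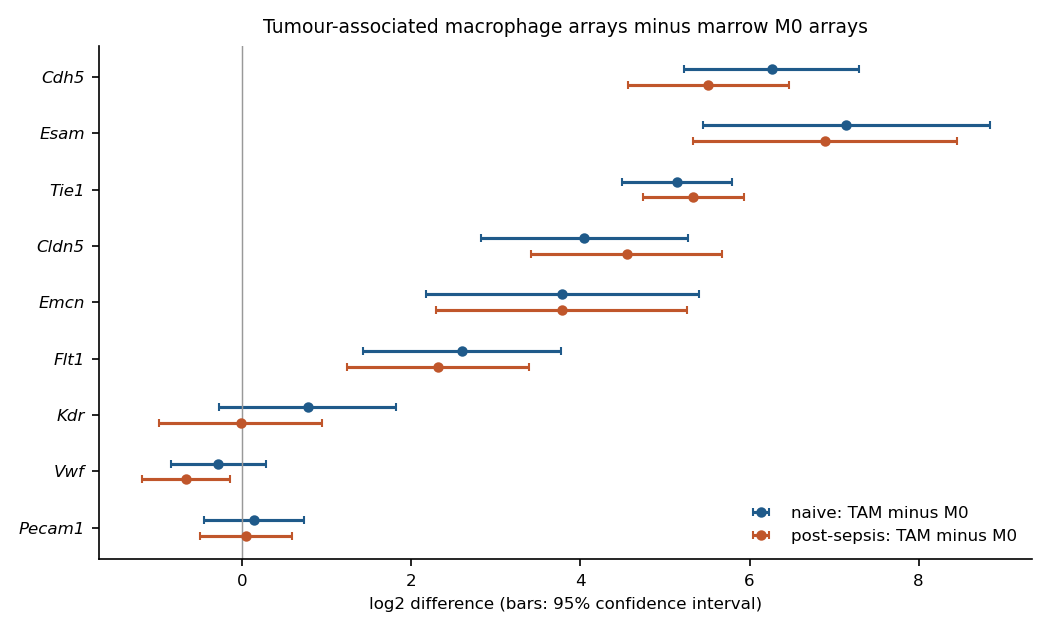
Fitted log2 difference between TAM and M0 arrays (horizontal axis) for the 9 tested genes (vertical axis), in naive mice (blue) and post-sepsis mice (orange), with 95% confidence intervals. Cdh5, Esam, Tie1, Cldn5, Emcn and Flt1 lie to the right of 0 in both, Kdr and Pecam1 straddle it; for Tie1, and for Esam and Emcn in post-sepsis mice, M0 was not well above background on any array, so that only the lower bounds given in the text hold.

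Other genes of endothelium, from a list of 28, were more often higher than lower in TAM. Of 24 tested in naive mice, 17 were higher and 2 lower in TAM than in M0 (14.4% and 20.8% of all features), and of 25 tested in post-sepsis mice 17 were higher and 3 lower (16.3% and 27%). Robo4, Aqp1, Sele, Sox18, Erg, Ramp2 and Tjp1 were above background on no naive M0 array. Like some members, these genes could enter the naive test through TAM alone, and for them the count is a description. The small p-values of Tjp1, Aqp1 and Sox18, named next, thus rest on background readings in M0. The 4 with the smallest p in naive mice were Tjp1, a scaffold protein of tight junctions in many epithelia as well (at least 53.7-fold higher), Egfl7, a secreted endothelial factor (6.05 ± 0.23), the water channel gene Aqp1 (at least 162-fold higher) and Sox18, a transcription factor of vessel development (at least 9.84-fold higher). The 2 that were lower, named after their values were seen, were Cd93 (-4.09 ± 0.29), which myeloid cells also carry, and Tal1 (-2.71 ± 0.27), also a blood lineage factor. Cldn3 and Ocln were not well above background on any array of the 6 groups.

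The ligands and co-receptors of the VEGF, angiopoietin, apelin, adrenomedullin and Notch pathways were followed as a list of 17 genes. In naive mice 8 of 15 tested were higher in TAM and 3 were lower, where 14.4% of features were higher and 20.8% lower, a share that the 3 lower genes do not exceed. Vegfc and Vegfd encode ligands of the lymphatic VEGF receptor. Vegfc was at least 54.4-fold and Vegfd at least 24.1-fold higher. Both were above background on no naive M0 array. They came into the test through TAM alone, and for them the count is a description. Angpt2, the Tek ligand made by activated endothelium, was higher by 3.76 ± 0.26, and Adm, Apln, Angptl4, Notch4 and Dll4 were higher by 4.39 ± 0.44, 4.38 ± 0.66, 3.07 ± 0.51, 3.45 ± 0.39 and 1.63 ± 0.57. Both neuropilin co-receptors were lower, Nrp1 by -4.23 ± 0.44 and Nrp2 by -4.04 ± 0.24, and so was Vegfa, by -0.91 ± 0.29 (adjusted p = 0.0183). In post-sepsis mice 11 of 16 tested were higher and 2 lower (16.3% and 27% of features). Angpt1 and Flt4 were above background on no post-sepsis M0 array, so they could enter that test through TAM alone. Vegfa was not called there (0.12 ± 0.27), and Nrp1 (-2.93 ± 0.41) and Nrp2 (-3.67 ± 0.23) were lower.

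Markers of several other cell types differed between naive TAM and M0 as well, where 14.4% of features were higher and 20.8% lower. Among mural cell genes, which mark pericytes and smooth muscle, 7 of 9 tested were higher in naive TAM and none lower, led by Notch3 and Pdgfrb, and the log2 summed level of the 10 genes ran from 3.20 to 4.47 in naive TAM and from 0.56 to 1.45 in naive M0, where Rgs5, Pdgfrb, Des and Notch3 were above background on no array. Among fibroblast genes 10 of 10 were higher, led by Col3a1, Lum, Dcn and Thy1, with summed levels of 7.90 to 9.99 against 0.12 to 1.30 and with Lum, Pdgfra and Postn above background on no naive M0 array. Of melanocyte genes 6 of 6 were higher (summed levels of 10.8 to 11.2 against 3.98 to 4.44), with Dct and Tyrp1 above background on no M0 array. Erythroid genes were higher for 4 of 4 tested (9.36 to 10.0 against -1.88 to -1.10), and 10 of 11 macrophage identity genes were lower (7.85 to 8.64 against 10.7 to 11.1). Of the lymphatic list only Pdpn and Lyve1 could be tested in naive mice, and Pdpn was higher; Prox1, Reln and Mmrn1 were above background on no naive TAM array. Of T and NK cell genes 6 of 7 were higher and none lower (summed levels of 3.71 to 4.45 against 2.96 to 3.69), and of B cell genes 3 of 5 were higher and none lower (2.48 to 5.36 against 1.72 to 2.10). The remaining lists were mixed. Platelet genes, a list that bears on Vwf, Esam and Pecam1, were higher for 4 and lower for 3 of 9 tested. Gp1ba, Gp5 and Tubb1 were above background on no naive TAM array. Summed levels, which follow the brightest genes of a list, were 3.20 to 3.85 in naive TAM against 6.42 to 7.31 in naive M0. The list mean did not follow them, at -2.28 to -2.06 in naive TAM and -2.68 to -2.17 in naive M0, with a median change of 0.53. Neutrophil genes were higher for 1 and lower for 4 of 9 tested (5.67 to 8.56 against 7.61 to 7.93). Keratinocyte genes were higher for none and lower for 1 of 4 (3.82 to 4.55 against 3.22 to 4.24), with a list mean of -1.80 in naive TAM and -1.33 in naive M0. Genes above background on no M0 array could enter these tests through TAM alone, and for them the counts are a description. The part of these cell types in the differences of the 10 genes was not tested.

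The second question was whether the tumour preparations of post-sepsis and naive mice differed. None of the 9 tested members was called (limma adjusted p under 0.05), none had an unadjusted p under 0.05, and 0% of all 28911 features were called, although 11205 had an unadjusted p under 0.05. Without post-sepsis TAM replicate 2, 9924 features were called, and in a fit over all 23 arrays 3722, but no member in either. The difference was -0.01 ± 0.38 for Cdh5 (95% confidence interval -0.89 to 0.88), -0.22 ± 0.36 for Esam (-1.06 to 0.61), 0.33 ± 0.40 for Cldn5 (-0.61 to 1.26), 0.11 ± 0.26 for Emcn (-0.51 to 0.72) and 0.51 ± 0.34 for Tie1 (-0.28 to 1.31). The 2 TAM groups overlapped for all 9. Flt1 differed by -0.38 ± 0.33 (-1.16 to 0.40), Kdr by -0.44 ± 0.47 (-1.54 to 0.65), Pecam1 by 0.01 ± 0.25 (-0.56 to 0.58) and Vwf by 0.13 ± 0.25 (-0.46 to 0.71). Changes within these intervals thus remain possible with 4 and 3 arrays, and the bounds are not the smallest changes that could be detected. The signs of these values turned under other scalings for Cdh5, Kdr, Flt1, Esam, Pecam1 and Vwf, as the closing part gives.

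The count over all features depended on the slide. With the slide as a block, 35.4% of features were called, 9.9% higher and 25.5% lower, and again none of the 9 members. Within slides 1, 2 and 3 post-sepsis less naive TAM was -0.71, 0.90 and -0.19 for Cdh5, -0.94, 0.78 and -0.39 for Esam, and 0.72, 1.16 and -0.42 for Tie1. Cdh5 and Esam thus stood higher after sepsis on slide 2 alone, where naive TAM replicate 4 was compared with post-sepsis replicate 3. Of the other endothelial list, 0 of 25 tested were called without the block and 3 were lower with it: Jam2 (-0.91), Clec14a (-1.11) and Palmd (-2.47). Of 16 tested vascular factors none was called without the block, and with it 3 were higher and none lower: Nrp1 (1.11), Hif1a (0.97) and Pgf (0.81). Lists of other cells had calls with the block as well: T and NK cell genes were lower for 6 of 7 tested, B cell genes for 5 of 5, neutrophil genes for 4 of 8, macrophage identity genes for 3 of 11 and mural genes for 1 of 10, while 1 of 3 lymphatic genes (Lyve1) and 1 of 6 melanocyte genes were higher. None of these lists had a call in the fit without the block, and their part in the endothelial values was not tested. When the post-sepsis change in tumour was set against that in marrow, as an interaction, 0 of 9 members were called, against 5.46% of features (63.5% of those calls were higher, and 87.1% with arrays centred on the median). For Cdh5, Esam, Emcn and Tie1 at most 1 M0 array of either kind was above background. The marrow part of the interaction was therefore at background for them, and it cannot show a difference of sepsis effects.

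**Figure D3:**
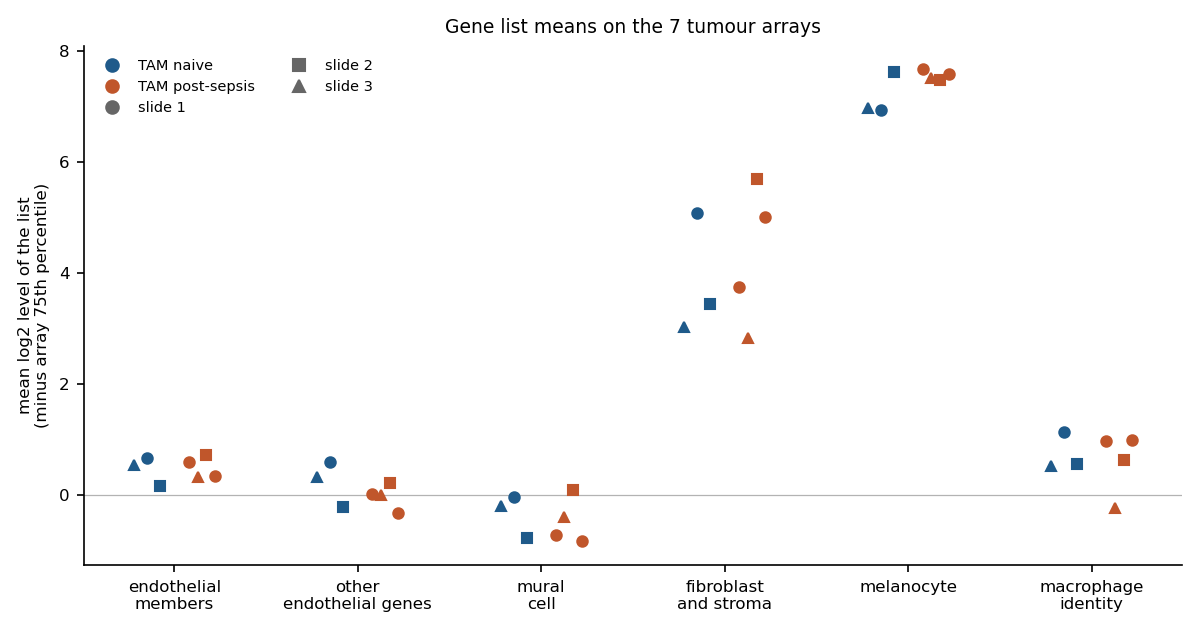
Mean log2 level of 6 gene lists (horizontal axis) on each of the 7 used TAM arrays, minus the array's 75th percentile (vertical axis), by group (colour) and slide (shape). The means of the 10 endothelial members run from 0.16 to 0.72 with both groups mixed, and those of the fibroblast genes spread from 2.83 to 5.69.

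Correlations with Cdh5 within TAM differed among the members. Over the 7 TAM arrays, Cdh5 ran most closely with Esam (Pearson r = 0.947, Spearman rho = 0.893) and Cldn5 (0.791 and 0.857) among the members, while the values were 0.258 and 0.0714 for Tie1 and -0.322 and -0.429 for Tek. Without the 2 arrays farthest from the Cdh5 median r was 0.858 for Esam and 0.766 for Cldn5 over 5 arrays. Among 18275 other genes the 8 most like Cdh5 were Robo4 (r = 0.984), Adgrf5 (0.980), Ldb2 (0.977), Gpihbp1 (0.968), Fam167b (0.964), Hrct1 (0.957), Sox18 (0.952) and Arap3 (0.949). With so many genes and only 7 arrays, some values of r this high can arise by chance, and none was tested. Robo4, a guidance receptor of endothelium, Gpihbp1, the capillary anchor of lipoprotein lipase, and Sox18 were on the list of other endothelial genes. Over all 23 arrays, where the split between TAM and cultures sets the correlation, the 8 most like were Plagl1 (0.972), Nedd4 (0.971), Ets1 (0.970), Stk39 (0.970), Rcn1 (0.968), Mical3 (0.968), Aebp1 (0.968) and Slc2a5 (0.968), none of them on a list of vessel genes. These correlations are descriptions over arrays that share a scaling, slides and tissue source, and Cdh5 was at background on most culture arrays.

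The third question was whether marrow macrophages carry these transcripts and change them. Of the 16 culture arrays, Emcn was well above background on 6 (3 of them M2), Cdh5 on 4, Tek on 3, Esam on 2 and Tie1 on none. No member was called between post-sepsis and naive M0, where 5 could be tested and 10.7% of features were called. Vwf differed by 0.51 ± 0.26 (interval -0.04 to 1.07; adjusted p = 0.296), Kdr differed by 0.35 ± 0.45 (-0.61 to 1.30), Flt1 by -0.10 ± 0.57 (-1.31 to 1.12), Pecam1 by 0.11 ± 0.28 (-0.48 to 0.70) and Cldn5 by -0.17 ± 0.58 (-1.41 to 1.06). Of the other endothelial list, Egfl7 rose by 2.52 ± 0.22 (adjusted p = 1.90e-06) and Eng, the TGF-beta co-receptor endoglin, fell by 1.28 on the log2 scale (adjusted p = 0.00125), out of 16 tested. Adm (1.91 ± 0.30), Angpt2 (1.01 ± 0.25) and Vegfc (at least 1.86-fold) were the 3 of 14 tested vascular factors that rose, and none fell. With the slide as a block these 3 kept their calls and 2 were lower, Vegfa (-0.83; adjusted p = 0.0365) and Angptl4 (-0.84; adjusted p = 0.0462).

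A pair of members stood higher in the cultures given IL-10. Flt1 read 3.77, 3.65, 3.64 and 3.89 in M2, a band narrower than in any other group, and all 4 arrays lay above the highest naive M0 array, 1.34. Flt1 rose by 3.83 ± 0.57 (adjusted p = 0.000284), or 14.2-fold. Vwf read 5.57, 5.13, 5.27 and 5.08 in M2, all above the naive M0 arrays, and rose by 2.03 ± 0.26 (adjusted p = 6.60e-05), or 4.09-fold. These were 2 of 6 tested members, with none lower, where 4.32% of features were called higher, 6.85% lower and 7.39% lay above naive M0 without overlap (with arrays centred on the median, 53.0% of all calls were higher in place of 38.7%, and both genes kept their calls). Within slides 1, 2 and 3 Flt1 rose by 3.86, 2.92 and 5.47 and Vwf by 1.82, 2.38 and 1.71.

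The cultures given IFN-gamma and LPS are the other polarised group. No member was called in M1 against naive M0, where 26.8% of features were, by the brightest probes of the 5 tested. Flt1 read -0.36, 0.19, 1.28 and 0.30 (0.44 ± 0.57; interval -0.77 to 1.66) and Vwf 3.72, 3.30, 3.00 and 3.31 (0.11 ± 0.26; interval -0.45 to 0.66). Set directly against M1 by the brightest probes, in a comparison added later, M2 was higher by 3.38 ± 0.57 for Flt1 (adjusted p = 0.000230, in a comparison where 30% of features were called) and by 1.93 ± 0.26 for Vwf (adjusted p = 2.57e-05). The second Vwf probe, A_55_P2169659, had the reverse order, with a mean level of 1.325 in M1 and 0.30 in M2. No direction for Vwf between M1 and M2 is therefore given. Against naive TAM, also added later, M2 was higher for Vwf, the difference of TAM less M2 being -2.32 ± 0.27 (adjusted p = 4.97e-07, with 39.7% of features called), and for Flt1 it was -1.23 ± 0.56 (adjusted p = 0.0897). In order of mean Flt1 level M2 stood first (3.74), then naive TAM (2.51) and post-sepsis TAM (2.12), then M1 (0.35), naive M0 (-0.09) and post-sepsis M0 (-0.19); no neighbours in this order were called different, and post-sepsis TAM against M1 was not tested.

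Other vessel genes were called in M2 at about the share of all features. Of 16 tested genes of the other endothelial list none was higher and 1, Egfl7, was lower (-1.29 ± 0.22), where 4.32% of features were higher and 6.85% lower, and with the slide as a block Cd93 was lower too (-0.73; adjusted p = 0.0483). Emcn, a member measured on 3 of 4 M2 arrays, was not called (0.82 ± 0.82; interval -0.92 to 2.56). Of 14 tested vascular factors, Vegfd was the 1 that rose (at least 1.84-fold) and Vegfa the 1 that fell, by 2.58 on the log2 scale (adjusted p = 6.05e-06), from a mean level of 3.15 to 0.57. Vegfa encodes a ligand that VEGFR1 binds, and in M1 it rose by 1.59 ± 0.26. In M1, 5 of 14 tested vascular factors were higher and 3 lower, where 26.8% of features were called. Of 7 tested platelet genes, which matter here since megakaryocytes also make von Willebrand factor, 1 was higher in M2, Pf4 at 0.71 ± 0.20. The log2 summed level of that list ran from 7.48 to 7.84 in M2 and 6.42 to 7.31 in naive M0, while the list mean was -2.50 and -2.47. Gp1ba, Gp9 and Gp5 were above background on no array of either group. The part of such cells in the Vwf value was not tested.

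Probes of the same gene did not always tell the same story. The Flt1 probes are annotated to different transcripts, as are those of Vwf, while both Kdr probes are annotated to the same transcript. Whether probes of a gene read different transcripts was not tested. Flt1 probe A_55_P2166282, whose position is 73.1 kb from that of the brightest, rose in M2 by 2.91 ± 0.39 (adjusted p = 9.75e-05) and read 1.60, 1.15, 1.75 and 1.44 there against -1.19, -1.20, -1.78 and -1.54 in naive M0. The third Flt1 probe, A_52_P405145, was close to background, with 3 of 4 M2 arrays above it, and was not called (1.65 ± 0.68; adjusted p = 0.141). The 2 brighter Flt1 probes thus moved together.

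Kdr split by probe. A_55_P2094469, the brightest, read 3.24, 4.01, 4.49 and 5.09 in M2, overlapping naive M0, and was not called (0.51 ± 0.45; interval -0.45 to 1.48). A_51_P316553, which lies 1.09 kb away and is printed in 10 spots with a median SD of 0.0541 between them, read -1.60, -1.20, -1.999 and -1.74 in M2 against 0.80, 0.66, 0.24 and 0.55 in naive M0. By that probe Kdr fell by 2.20 on the log2 scale (adjusted p = 1.15e-05), with all M2 arrays below all others of the series. In TAM against M0 the same probe gave 0.63 ± 0.26 (adjusted p = 0.0675) in naive and 0.56 ± 0.24 (adjusted p = 0.0659) in post-sepsis mice. No direction for Kdr in M2 is therefore given.

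Vwf probe A_55_P2169659, 94.4 kb from the brightest, gave a different order of the groups. It rose in M1 by 2.10 ± 0.17 (adjusted p = 1.08e-07), with 1.30, 1.24, 1.30 and 1.47 against -0.77, -0.78, -0.74 and -0.79 in naive M0, and in M2 by 1.07 ± 0.17 (adjusted p = 0.000449), with 0.46, 0.41, 0.16 and 0.18. Both Vwf probes were thus higher in M2 than in naive M0, and the second alone was called in M1. Cdh5, Pecam1, Tie1, Tek, Emcn, Esam and Cldn5 each have 1 probe, so no such check exists for them.

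**Figure D4:**
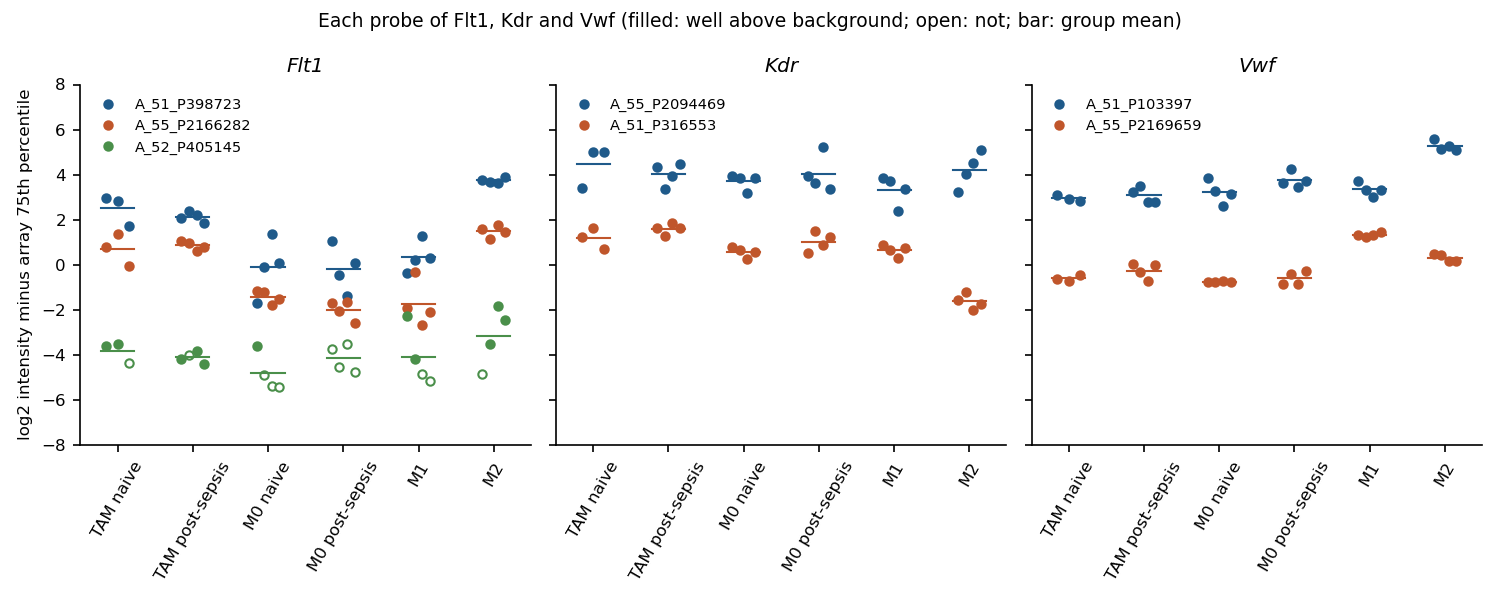
Level of every probe of Flt1, Kdr and Vwf on each used array, as log2 intensity minus the array's 75th percentile (vertical axis), by group (horizontal axis); colours are probes, filled points are well above background, open points are not, and bars are group means. In M2 both brighter Flt1 probes and both Vwf probes stand above naive M0, while the Kdr probes part, A_51_P316553 falling to between -1.999 and -1.20.

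Promoter sequence from RefSeq (GRCm38.p6) was matched by symbol for 6 of the 10 members: Kdr, Flt1, Tie1, Tek, Emcn and Cldn5. Endothelial genes are commonly controlled by ETS family factors, and IL-10 acts through STAT3. The 250 bases before each start were therefore searched on both strands for AGGAAG, a spelling that ETS factors read. It was found in Flt1, Tie1 and Emcn, 3 of the 6, and in 29.5% of all 32851 such windows. Other spellings that ETS factors read were not searched, so windows without AGGAAG are not shown to lack an ETS site. A STAT site, spelled TTCNNNGAA, was found in none of the 6 and in 7.0% of all windows. A GATA site, spelled AGATAA, was likewise found in none of the 6 and in 10.0% of all windows. An SP1 site, spelled GGGCGG, was found in Kdr, Flt1 and Cldn5, and in 32.7% of all windows; none of these motifs contains another. The 3 windows that hold AGGAAG are printed, all of genes that were higher in TAM than in M0, and capitals mark it or its reverse complement. A match of letters is not a bound site.
Flt1 (chr5:147726012-147726261, minus strand): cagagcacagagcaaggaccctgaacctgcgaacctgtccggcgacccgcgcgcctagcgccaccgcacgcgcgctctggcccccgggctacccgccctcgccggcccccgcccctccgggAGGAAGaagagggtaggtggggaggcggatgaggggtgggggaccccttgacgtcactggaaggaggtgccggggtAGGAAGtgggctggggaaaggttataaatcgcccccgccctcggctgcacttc
Tie1 (chr4:118489850-118490099, minus strand): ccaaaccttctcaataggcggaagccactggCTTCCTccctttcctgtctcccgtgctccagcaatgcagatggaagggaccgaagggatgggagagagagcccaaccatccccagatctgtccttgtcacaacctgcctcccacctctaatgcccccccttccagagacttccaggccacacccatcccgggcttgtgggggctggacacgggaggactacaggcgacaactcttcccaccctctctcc
Emcn (chr3:137340828-137341077, plus strand): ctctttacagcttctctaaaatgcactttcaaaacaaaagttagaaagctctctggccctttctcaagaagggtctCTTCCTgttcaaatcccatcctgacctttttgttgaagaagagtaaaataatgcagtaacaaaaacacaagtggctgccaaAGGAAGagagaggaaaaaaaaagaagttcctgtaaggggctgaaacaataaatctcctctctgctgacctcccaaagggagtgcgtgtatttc
Counted back from the start, the marked letters begin at -129 and -53 in Flt1, at -219 in Tie1 and at -174 and -93 in Emcn. Cldn5, which was higher in TAM as well, held no AGGAAG in this window.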

How the data were processed

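The deposited scanner files hold, per the file headers, Agilent Feature Extraction output (version 10.7.3.1; the submitters' processing notes name 12.5), with a background-corrected processed intensity for each spot of 1 colour; probe positions are mm9. Non-control spots flagged as outliers were left out, log2 of the remaining intensities was taken, and spots of a probe were averaged. Each array's 75th percentile over these probe values was then subtracted. The deposited value table was not used here. A gene was given by its probe of highest mean over 23 arrays. Symbols came from RefSeq (GRCm38.p6) or the files. Features passed to the test where 3 or more arrays of either group read them well above background; they were tested with limma 3.58.1 (R 4.3.3; lmFit, eBayes; two-sided), with Benjamini-Hochberg adjustment over all of them and a threshold of 0.05. TAM groups were fitted on 7 arrays, cultures on 16, and comparisons across them on 23. Intervals are 95%. The scripts were tested on simulated data. The number of arrays limits the precision. The 10 genes and all lists were chosen with earlier results of these data known. Named were all members and at most 4 genes of other lists, those of smallest p, with exceptions stated. Any vascular factor could be named, but not all of them, nor all that were called, are named. Also named were the genes with the highest Pearson r with Cdh5 over 23 and over 7 TAM arrays. Bounds ("at least") set the brighter group's mean against the dimmest signal above background. Alternatives covered normexp, quantile and median scaling, the filter, probe averaging, slide and replicate blocks, single arrays left out and the excluded array put back. Other probes in place of the brightest, M2 against M1 and TAM against M2 were chosen after seeing the data.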

Additional observations from a re-analysis of the deposited data

Results flagged for a closer look

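Of 50 groups of 4 arrays, 2 held an array that stood apart from the other 3; chance alone flags about 1 in 20 groups. Esam on M0 naive replicate 3 read -3.95 and was well above background, while the other 3 arrays read -6.69 to -6.64 and were not. Kdr by its brightest probe on the same array, M0 naive replicate 3, read 3.16, below the other 3 at 3.83 to 3.94. Without that array no naive M0 array was above background for Esam, and the difference from naive TAM has only a lower bound. No cause was tested.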

How the results depend on the processing

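The 6 members higher in TAM than in M0, and Flt1 and Vwf in M2, kept their direction and their call under every alternative run on the brightest probe or the mean over probes, but not their size: normexp gave Cdh5 in naive mice 3.53 in place of 6.26 and Esam 3.87 in place of 7.15, as the report gives for all 6. Cdh5, Esam, Emcn and Tie1 came into the test through TAM alone, so that for them a kept call is a description and not further support. Over 723 values of single members under an alternative, 653 kept direction and side of the threshold, 58 changed sign, 10 lost and 2 gained a call; the cause was not tested in any case.

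The lower Vwf call in post-sepsis TAM against M0 (1 member) went to 0 under normexp, median centring, no filter, the mean over probes and with naive TAM replicate 2 put back, and ranged from 0 to 1 with single arrays left out (0 without post-sepsis TAM replicate 3 or 4, or post-sepsis M0 replicate 2). The mean over probes called 1 member higher in M1, Vwf. Features called in all were 7052 in post-sepsis TAM against M0 with naive TAM replicate 2 (12948 without it). Between the TAM groups they were 10244 with the slide block, 10307 with the replicate block, 3722 over all 23 arrays, and 0 to 9924 with single arrays left out (9924 without post-sepsis replicate 2). Median centring gave 1251 in place of 3184 between the M0 groups and 1434 in place of 3319 in M2. For the interaction they were 3081 (quantile), 822 (median centring), 713 (with naive TAM replicate 2) and 824 to 5569 with single arrays left out (5569 without post-sepsis TAM replicate 2), against 1732.

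Signs turned for values that had not been called, apart from Vwf in post-sepsis TAM against M0. Naive TAM against M0 gave Pecam1 -0.043 (quantile) and -0.14 (median centring), and Vwf 0.082 (quantile) and 0.15 (second probe). Post-sepsis TAM against M0 gave Pecam1 -0.059 (normexp) and -0.0098 (slide block), Kdr 0.093 (normexp), 0.11 (quantile), 0.32 (median centring), 0.27 (mean over probes) and 0.56 (second probe), and Vwf 0.34 (second probe). Between the TAM groups normexp gave Pecam1 -0.062, quantile Vwf -0.20, and median centring Cdh5 0.53, Kdr 0.087, Flt1 0.15 and Esam 0.31. The excluded array put back gave Cdh5 1.20, Pecam1 -0.58 and Esam 0.38 there, and second probes Kdr 0.40 and Flt1 0.16. Cldn5 between the M0 groups was 0.22 (normexp) and 0.0030 (slide block). In M1 Vwf was -0.055 (quantile), Kdr 0.073 and Flt1 -0.34 (second probes), and in M2 Kdr was -0.84 (mean over probes) and -2.20 (second probe, called).

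With single arrays left out, signs turned within these ranges. In post-sepsis TAM against M0, Pecam1 ran from -0.15 to 0.34 and Kdr from -0.24 to 0.38. Between the TAM groups, Cdh5 ran from -0.41 to 0.34, Pecam1 from -0.13 to 0.13, Emcn from -0.025 to 0.30, Esam from -0.61 to 0.073 and Vwf from -0.015 to 0.23. Between the M0 groups, Pecam1 ran from -0.19 to 0.31, Kdr from -0.055 to 0.57, Flt1 from -0.63 to 0.38 and Cldn5 from -0.65 to 0.55. In M1, Flt1 ran from -0.091 to 0.92 and Vwf from -0.098 to 0.31.

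Replicate numbers did not pair the samples: deviations of same-numbered arrays correlated between -0.53 and 0.68, and in no comparison were all above 0.1. With the replicate number as a block, the counts of members called did not change; Cdh5 between the TAM groups was 0.017 and Vwf -0.015, with post-sepsis replicate 2 left without a partner. Dim probes limit what can be said of Tek and of Cdh5, Esam, Emcn and Tie1 in the cultures.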

Other observations

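Naive TAM replicate 2, the array the submitters excluded, had a 75th percentile of 50.4 intensity units, against 218 to 608 on the other 23 arrays. Cdh5 (-3.52), Tie1 (-3.78) and Emcn (-3.50) were not well above background there, while Esam read -1.27, Cldn5 -0.96, Vwf -0.35, Flt1 3.32 and Pecam1 1.09. Its melanocyte list mean was 3.16, below the 6.94 to 7.67 of the other TAM arrays.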
